A study of Mus musculus with 4 samples.

Results

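The mouse Oas1 family is a set of close relatives of the antiviral gene Oas1. Its 8 members, Oas1a to Oas1h, were found among the 24411 genes of the deposited tables as the rows named Oas1 plus a single lower-case letter. The family was chosen by earlier results of these same data, in which several members stood higher after MYC inhibition, so the differences between the groups are given below as a description of the genes that were selected on them. Within the family, Oas1c, Oas1d and Oas1e had been set apart beforehand as the 3 oocyte-type members, against the other 5.

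Proteins of the 2′-5′ oligoadenylate synthetase (OAS) family bind double-stranded RNA, a sign of viral infection, and an active member then links ATP into short oligoadenylates, which set off the decay of cellular and viral RNA. Interferons raise the transcription of OAS genes in most cells through a promoter element that interferon signalling acts on. In the mouse the Oas1 gene has been copied many times: Oas1a and Oas1g encode active synthetases, Oas1b is known as the flavivirus resistance gene and is truncated in most laboratory strains, and Oas1c, Oas1d and Oas1e are known from the ovary and the oocyte, where Oas1d, which lacks synthetase activity, has been linked to female fertility.

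Polyadenylated RNA was sequenced from late two-cell embryos of the ICR strain at 36 h post-insemination (hpi). All embryos were made by in vitro fertilization and grown in KSOM medium with bovine serum albumin. The control group received DMSO, the solvent of the inhibitor, and the other group received 6 µM 10074-G5 in the same solvent, a small molecule that keeps MYC from pairing with MAX. Each group had 2 libraries of 10 pooled embryos, so that a library is a pool and not an animal, and the pool gives no view of single embryos or blastomeres. The labels start the treatment at 3 hpi, whereas the design text starts it at 6 hpi. The comparison asks how blocking MYC from the one-cell stage changed the transcripts of the two-cell embryo. In RNA of pooled embryos, fewer cells that hold a transcript and less transcript per cell cannot be told apart.

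The libraries held between 18206584 and 20718690 estimated read counts. DMSO replicate 1 stood apart: its correlation with the other libraries over log2 counts of the tested genes was 0.825 to 0.887, whereas the other 3 libraries correlated with each other at 0.912 to 0.931, which concerns every Oas1 result below. All 44 listed maternal oocyte transcripts and 27 of 28 listed two-cell transcripts passed the filter on low counts. Passing shows that reads were present and does not by itself set the stage. Of markers of other cells, 7 of 16 cumulus and granulosa genes, 7 of 14 sperm genes and 7 of 13 blood cell genes were at 0 in all 4 libraries, among them Foxl2 and Amh, Prm1, and Hbb-bs. Markers with reads included Hba-a2, at 174 to 322 FPKM, while Hba-a1 did not pass 2.38 FPKM, Cd68 at 1.95 to 11.4 FPKM, Prm2 at 1.56 to 15.8 FPKM, the sperm flagellum gene Odf2, which is also used by other cells, at 12.4 to 59.8 FPKM, and, of the cumulus list, Amhr2 at 4.45 to 21.5 FPKM and Nr5a2 at 12.5 to 28.8 FPKM, both lower in the inhibitor libraries. Of the 3 lists 5, 4 and 4 genes passed the filter. The summed level of the cumulus list was 51.5 and 34.2 FPKM in DMSO embryos and 25.03 and 26.96 in inhibitor embryos. Most of it was Nr5a2 and Amhr2 in every library. That of the sperm list was 15.5 and 45.1 against 79.9 and 53.9, most of it Odf2. That of the blood list was 237 and 236 against 181 and 336, most of it Hba-a2. Each sum thus rests on 1 or 2 genes and does not measure how many other cells a pool held. Gene-level values do not show whether the reads listed under Hba-a2 came from that gene or from another transcript that overlaps or resembles it. Their part in the Oas1 differences was not tested.

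The sequences of the members show how alike they are, which matters for assigning reads to them. In the GRCm38 assembly, with GENCODE M21 gene models, the 8 genes lay side by side on chromosome 5 within 135.4 kb, between Oas3 on one side and Rph3a on the other. The order along the chromosome was Oas1e (chr5:120786226-120795530, minus strand), Oas1c (chr5:120800194-120812514, minus), Oas1b (chr5:120812635-120824163, plus), Oas1f (chr5:120847367-120857986, plus), Oas1h (chr5:120861421-120873506, plus), Oas1g (chr5:120876142-120887613, minus), Oas1a (chr5:120896256-120907521, minus) and Oas1d (chr5:120914536-120921652, plus). All are annotated as protein-coding except Oas1b, which is annotated as a polymorphic pseudogene. The stretch of 60 coding bases in which the members were most alike serves as an example of the resemblance. Capitals mark the 10 positions at which the members were not all alike, and the other 50 of the 60 positions were the same in all 8.
Oas1a: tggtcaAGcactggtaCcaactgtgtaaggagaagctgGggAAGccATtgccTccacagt
Oas1b: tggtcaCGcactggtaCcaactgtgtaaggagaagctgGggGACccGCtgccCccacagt
Oas1c: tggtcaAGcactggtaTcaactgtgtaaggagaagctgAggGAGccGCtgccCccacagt
Oas1d: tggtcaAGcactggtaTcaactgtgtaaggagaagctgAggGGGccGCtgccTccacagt
Oas1e: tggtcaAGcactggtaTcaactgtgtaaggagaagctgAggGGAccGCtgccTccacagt
Oas1f: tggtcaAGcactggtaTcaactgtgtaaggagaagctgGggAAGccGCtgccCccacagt
Oas1g: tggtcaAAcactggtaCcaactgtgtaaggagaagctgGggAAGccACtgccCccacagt
Oas1h: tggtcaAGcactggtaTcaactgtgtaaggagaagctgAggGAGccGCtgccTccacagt

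Over the whole coding sequence, with alignment gaps left out, the members fell into pairs of unequal closeness. Oas1a and Oas1g were 96.7% identical, the closest pair, followed by Oas1d and Oas1e at 90.9%. Oas1c was closest to Oas1e at 85.5%, Oas1f to Oas1c at 84.9%, Oas1h to Oas1c at 78.7% and Oas1b to Oas1g at 80.1%. Identity among Oas1c, Oas1d, Oas1e, Oas1f and Oas1h ran from 76.2% to 90.9%, and identity between these 5 and Oas1a, Oas1b and Oas1g from 71.8% to 77.4%.

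These differences were enough to tell most members apart by reads. Of all stretches of 150 bases in the transcripts of Oas1b, Oas1d, Oas1e, Oas1f and Oas1h, 100% occurred in no other gene of the annotation. For Oas1c the share was 97.8%, since a part is shared with the antisense gene Gm43069, which overlaps both Oas1c and Oas1e on the opposite strand and has no row in the tables. The library kit does not keep strand, so reads from the stretch that Gm43069 shares with Oas1c cannot be told apart. Oas1e shared stretches of 50 bases with Gm43069, but none of 150 bases. Oas1a and Oas1g shared stretches with each other only, and 67.6% of the stretches of Oas1a and 69.9% of those of Oas1g were unique to it. The reference assembly is of the C57BL/6J strain while the embryos were ICR, and what strain differences did to the read assignment was not tested.

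Levels are given in FPKM, fragments per length of transcript and per sequencing depth, as the authors deposited them, since these can be set side by side between genes of different length. Oas1d was the most abundant member in every library, at 53.9 and 108 FPKM in DMSO embryos and 126 and 142 FPKM in inhibitor embryos. It ranked between 908 and 1924 among the 24411 genes. Oas1h, which was not among the oocyte-type members, came next on average, at 12.9 and 39.1 FPKM in DMSO embryos and 70.9 and 84.3 FPKM in inhibitor embryos. The 2 oocyte-type members that followed were at much the same level as Oas1h. Oas1e was at 12.5 and 36.7 FPKM in DMSO embryos and 75.9 and 69.0 FPKM in inhibitor embryos. Oas1c was at 8.54 and 26.8 FPKM in DMSO embryos and 72.1 and 70.2 FPKM in inhibitor embryos. Oas1f stood at 3.05 and 27.2 FPKM in DMSO embryos and 47.9 and 42.2 FPKM in inhibitor embryos. In these 5 members DMSO replicate 1 was the lowest library, DMSO replicate 2 lay between it and both inhibitor libraries, and the groups did not overlap.

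The remaining 3 members were low or not detected. Oas1b was at 1.58 and 2.47 FPKM in DMSO embryos and 0.56 and 2.08 FPKM in inhibitor embryos, from 18 to 70 counts a library, and its groups overlapped. Oas1a and Oas1g, the members with synthetase activity, had 0 counts in all 4 libraries. A count of 0 allows up to 3 counts, which for Oas1a is 0.0897 to 0.102 FPKM and for Oas1g 0.0821 to 0.0937 FPKM, a limit that covers counting error only. The study kept uniquely mapped reads, so reads from stretches that Oas1a and Oas1g share would not count, whereas their unique stretches would.

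**Figure D1:**
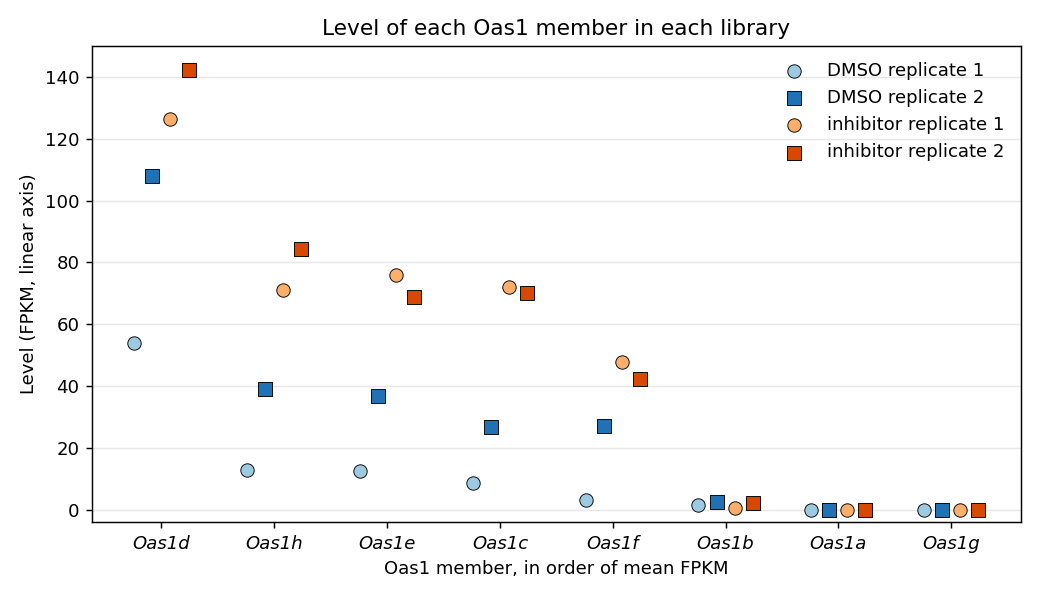
Level of the 8 Oas1 members in FPKM on a linear axis, in order of their mean, with 1 point for each of the 4 libraries (blue for DMSO, orange for the inhibitor, circles for replicate 1 and squares for replicate 2). Oas1d was highest throughout, Oas1h, Oas1e, Oas1c and Oas1f lay lower with DMSO replicate 1 lowest in each, and Oas1a and Oas1g were at 0.

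The order of the levels was therefore Oas1d, Oas1h, Oas1e, Oas1c, Oas1f and Oas1b, with Oas1a and Oas1g at 0. Oas1d exceeded Oas1h in all 4 libraries, by 1.69-fold to 4.18-fold. Oas1h, Oas1e and Oas1c did not differ beyond their spread: the ratio of Oas1h to Oas1e ran from 0.934 to 1.22 and that of Oas1e to Oas1c from 0.982 to 1.47. The ratio of Oas1c to Oas1f ran from 0.987 to 2.80, so these neighbours changed places too. Oas1f was above Oas1b in all 4 libraries, by 1.93-fold in DMSO replicate 1 and up to 85.6-fold in inhibitor replicate 1.

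Set out along the chromosome, the levels did not follow the order of the genes. Oas1d lies next to Oas1a, which was at 0, and Oas1h next to Oas1g, also at 0. Oas1c and Oas1b run in opposite directions from starts with 120 bases between them, and Oas1c was at 8.54 to 72.1 FPKM and Oas1b at 0.56 to 2.47 FPKM. The 5 members with sizeable levels included genes on both strands and at both ends of the cluster.

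**Figure D2:**
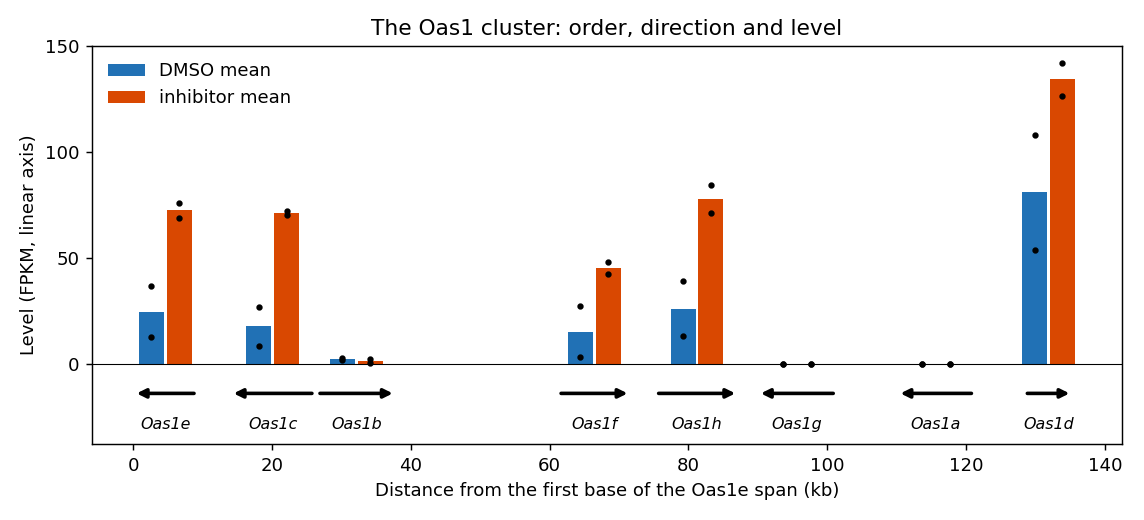
The Oas1 cluster drawn to scale, with distance in kb from the first base of the Oas1e span on the x axis and level in FPKM on the y axis; arrows show the extent and direction of each gene, bars the mean of 2 libraries (blue for DMSO, orange for the inhibitor) and points the libraries. Oas1d at one end and Oas1e and Oas1c at the other were well above 0, with Oas1g and Oas1a at 0 between Oas1h and Oas1d.

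The stretches just before the transcription starts are shown for the members that RefSeq's promoter table holds, 5 of 8. The table has none for Oas1b, Oas1d and Oas1e. For Oas1f and Oas1h 150 bases are printed rather than 120, a length set to take in their match to the second motif below. Whether these letters have a part in the levels was not tested. Its starts are those of the GENCODE models given above for Oas1c, Oas1f and Oas1g, and lie 4 bases from them for Oas1a and 1 base for Oas1h. Each is written 5′ to 3′ on the strand of its gene (GRCm38.p6), ends 1 base before the start that RefSeq gives, and has capitals at matches to 2 motifs, the core of the interferon-stimulated response element (GAAANNGAAA, on which interferon signalling acts) and the forkhead core (GTAAACA). Both strands were searched, and neighbouring matches of the first motif may overlap.
Oas1a, chr5:120907526-120907645, minus: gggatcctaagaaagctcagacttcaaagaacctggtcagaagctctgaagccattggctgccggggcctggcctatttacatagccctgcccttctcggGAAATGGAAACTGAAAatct
Oas1g, chr5:120887614-120887733, minus: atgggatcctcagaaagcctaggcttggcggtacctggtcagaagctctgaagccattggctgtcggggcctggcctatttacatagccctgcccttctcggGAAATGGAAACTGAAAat
Oas1c, chr5:120812515-120812634, minus: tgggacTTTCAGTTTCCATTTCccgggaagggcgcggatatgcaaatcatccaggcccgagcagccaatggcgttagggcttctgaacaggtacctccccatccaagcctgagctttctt
Oas1f, chr5:120847217-120847366, plus: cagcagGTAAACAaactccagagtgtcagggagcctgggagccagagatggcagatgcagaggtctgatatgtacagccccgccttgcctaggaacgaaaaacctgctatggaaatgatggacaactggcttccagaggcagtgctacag
Oas1h, chr5:120861272-120861421, plus: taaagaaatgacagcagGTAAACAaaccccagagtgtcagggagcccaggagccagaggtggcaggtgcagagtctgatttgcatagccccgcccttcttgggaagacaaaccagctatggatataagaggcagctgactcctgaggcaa

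The interferon element came as an overlapping pair of matches close to the start of Oas1a, 20 and 14 bases before it, and of Oas1g, 18 and 12 bases before it. In Oas1c a pair stood far from its own start, 114 and 108 bases before it, and on the other strand. That stretch is the whole gap between Oas1c and Oas1b, and on the strand of Oas1b the matches begin 22 and 16 bases before the Oas1b start. No match to these letters was found in the 250 bases before Oas1f and Oas1h, of which 150 are printed. The forkhead core was found in Oas1f, 144 bases before the start, and in Oas1h, 133 bases before it, and not in the other 3. The E-box CACGTG, the sequence that MYC and MAX bind, and the TATA box TATAAA were in none of the 5 windows of 250 bases. Among 32851 mouse promoters of the same length, 2.98% held the interferon element, 3.17% the forkhead core, 6.02% the E-box and 12.4% the TATA box. With alignment gaps left out, Oas1a and Oas1g were 86.9% identical over 244 aligned bases, and Oas1f and Oas1h 84.9% over 232. The other pairs were 67.1% to 74.2% identical over 194 to 213 aligned bases. Leaving out gaps raises such values, most where many bases are unaligned. A match is a description of the letters, and a window without a match says nothing about the binding of a factor.

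Differences between the groups were measured on counts scaled to library size (CPM) scaled by the TMM method, in a fit of edgeR across 13549 genes with enough counts, and a gene was called when its log2 fold change of inhibitor over DMSO passed 1 in size at an adjusted p under 0.05. Of the 8 members, 6 passed the filter on low counts, all but Oas1a and Oas1g, and Oas1b passed it at a low level. None of the 6 was called, against 0% of all tested genes called as higher: no gene of the 13549 was called by edgeR in this design, although 2013 genes had an unadjusted p under 0.05. In DESeq2, the tool the study used, 1 of the 5 members with an adjusted p, Oas1c, was called as higher, where 1.09% of 7971 genes were. In 5 of the 6 members both inhibitor libraries had a higher CPM than both DMSO libraries, where 28.9% of all tested genes did. Since the family was chosen on this contrast, nothing is read from these shares.

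Oas1c had the largest log2 fold change of the 6 tested members, with 19.6 and 51.8 CPM in DMSO embryos and 139 and 133 CPM in inhibitor embryos. Its log2 fold change was 1.93 ± 0.51 (SE), a 3.81-fold difference, with an adjusted p of 0.333 in edgeR and 0.0112 in DESeq2. Both DMSO libraries lay below both inhibitor libraries, and the DMSO libraries differed by more between themselves, 2.64-fold, than the inhibitor libraries did, 1.05-fold. Oas1e, its close relative, had 20.6 and 50.7 CPM in DMSO embryos and 105 and 93.5 CPM in inhibitor embryos. The log2 fold change of Oas1e was 1.48 ± 0.49, with an adjusted p of 0.333 in edgeR and 0.0526 in DESeq2. Oas1d, the most abundant member, had the smallest relative difference of the 5, with 89.8 and 151 CPM in DMSO embryos and 177 and 195 CPM in inhibitor embryos. Its log2 fold change was 0.63 ± 0.39, with an adjusted p of 0.445 in edgeR and 0.329 in DESeq2.

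The members outside the oocyte-type group included a pair with values like those of Oas1e. Oas1h had 17.9 and 41.5 CPM in DMSO embryos and 76.0 and 86.4 CPM in inhibitor embryos, and a log2 fold change of 1.45 ± 0.49 with an adjusted p of 0.333 in edgeR and 0.0566 in DESeq2. Oas1f had 4.19 and 31.4 CPM in DMSO embryos and 55.5 and 47.8 CPM in inhibitor embryos. Its log2 fold change of 1.54 ± 0.81 carried the second largest error of the members, with an adjusted p of 0.388 in edgeR and 0.136 in DESeq2. Oas1b was the exception in direction, with a log2 fold change of -0.75 ± 0.96, an adjusted p of 0.719 in edgeR and groups that overlapped, and DESeq2 gave it no adjusted p. The log2 fold change ran from 0.63 to 1.93 over the 3 oocyte-type members and from -0.75 to 1.54 over the 3 tested others, beside a median of 0.04 over all tested genes. The transcript length that was deposited for Oas1h ran from 1366 to 1497 bases between libraries, while the lengths of the other members were the same in all libraries. Oas1h had 2 listed transcripts, as did Oas1b and Oas1g.

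Much of the size of these differences rested on DMSO replicate 1. Within the DMSO group, replicate 2 exceeded replicate 1 on the log2 CPM scale by 2.77 in Oas1f, 1.38 in Oas1c, 1.28 in Oas1e, 1.19 in Oas1h and 0.75 in Oas1d, where the median over all tested genes was 0.05. Between the inhibitor libraries the same 5 members differed by -0.21 to 0.18. Without DMSO replicate 1 the edgeR log2 fold change was 1.41 for Oas1c, 0.98 for Oas1e, 0.98 for Oas1h, 0.73 for Oas1f and 0.31 for Oas1d. That both inhibitor libraries stood above DMSO replicate 2 in these 5 of 6 members follows from the lack of overlap given above. The same held in 37.2% of all tested genes. Without DMSO replicate 2, in contrast, all 5 passed both thresholds, with log2 fold changes of 3.62 for Oas1f, 2.79 for Oas1c, 2.27 for Oas1e, 2.17 for Oas1h and 1.05 for Oas1d, when 14.6% of 14669 genes were called as higher. In both of these fits the lone DMSO library was assumed to vary like the inhibitor libraries.

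**Figure D3:**
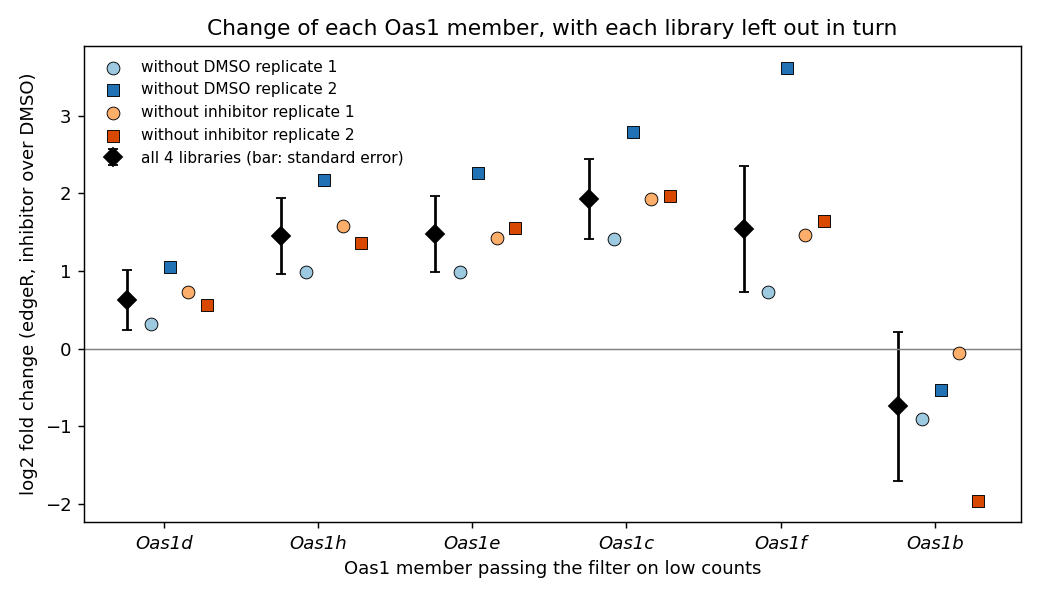
The edgeR log2 fold change of inhibitor over DMSO for the 6 Oas1 members that passed the filter, with diamonds for all 4 libraries (bars show the standard error) and coloured points for fits with 1 library left out. For Oas1c, Oas1d, Oas1e, Oas1f and Oas1h every point was above 0, lowest without DMSO replicate 1 and highest without DMSO replicate 2, while for Oas1b every point was below 0.

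The family as a whole made up 0.0135% and 0.0343% of all counts in DMSO embryos and 0.0577% and 0.0592% in inhibitor embryos. Its summed level was 92.5 and 240 FPKM in DMSO embryos and 394 and 410 FPKM in inhibitor embryos, so that the inhibitor libraries were alike and the DMSO libraries were not. Oas1c, Oas1d and Oas1e together held 81.1% and 71.4% of it in DMSO embryos and 69.7% and 68.6% in inhibitor embryos. The share of Oas1d was 58.3% and 45.0% in DMSO embryos and 32.1% and 34.7% in inhibitor embryos, without overlap between the groups. The exact permutation test of 2 against 2 libraries cannot give a p below 0.333, so such shares are described and not tested.

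Set against Oas1d in the same library, Oas1c, Oas1e, Oas1h and Oas1f took a larger part in inhibitor embryos and Oas1b a smaller one. Oas1c was at 15.8% and 24.8% of the Oas1d level in DMSO embryos and at 57.0% and 49.4% in inhibitor embryos. Oas1e was at 23.2% and 34.0% against 60.1% and 48.5%, Oas1h at 23.9% and 36.2% against 56.1% and 59.3%, and Oas1f at 5.66% and 25.1% against 37.9% and 29.7%. In each of these 4 members the groups did not overlap, and DMSO replicate 1 held the lowest ratio. Oas1b was at 2.93% and 2.29% of the Oas1d level in DMSO embryos and at 0.443% and 1.46% in inhibitor embryos, also without overlap. In Oas1f the DMSO libraries lay further apart than DMSO replicate 2 lay from either inhibitor library, and the Oas1b ratios rest on 18 to 70 counts a library. These ratios were not tested, and the ratios of other genes to Oas1d were not computed. A ratio also does not show which of its 2 genes differed.

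**Figure D4:**
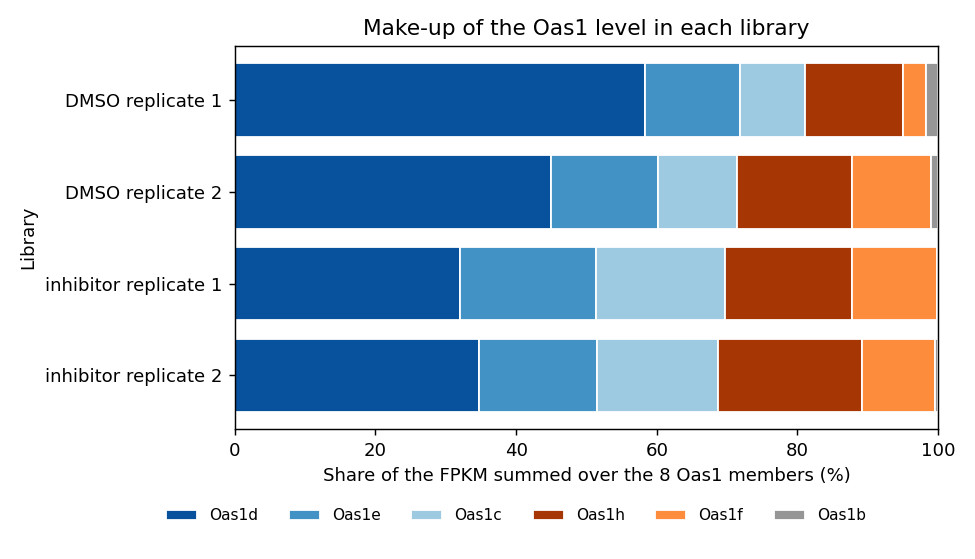
Share of each Oas1 member in the FPKM summed over the family, in percent, with 1 bar for each library (blue shades for the oocyte-type members Oas1d, Oas1e and Oas1c, other colours for Oas1h, Oas1f and Oas1b; Oas1a and Oas1g were at 0). Oas1d held 58.3% in DMSO replicate 1, 45.0% in DMSO replicate 2 and 32.1% and 34.7% in the inhibitor libraries.

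Genes that resembled the oocyte-type members over the 4 libraries were found by the root mean square difference in log2(FPKM + 1) among the other 24410 genes. Oas1c was most like Daw1, a dynein assembly factor, at 0.20, Gng3, a G protein subunit, at 0.20, and Kpna7, an importin of oocytes and early embryos, at 0.21. Kpna7 was at 9.21 and 26.2 FPKM in DMSO embryos and 67.8 and 52.9 FPKM in inhibitor embryos. Oas1d was most like Zc3h14, which binds poly(A) tails, at 0.12, Nae1, a part of the NEDD8-activating enzyme, at 0.13, and Cst9, a cystatin, at 0.13. Oas1e was most like Ccdc109b, a subunit of the mitochondrial calcium channel, at 0.14, Ccdc122 at 0.14, and its own relative Oas1h at 0.16. All of these points share the 4 libraries and with them the low DMSO replicate 1.

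Maternal oocyte transcripts and two-cell transcripts moved beside the Oas1 members. Of 44 tested maternal transcripts, 39 had a log2 fold change above 0 and 5 below, the median was 0.81, edgeR called none and DESeq2 called 3 as higher, Nobox, Oog1 and Oosp1, which are named after their values were seen, where 1.09% of all genes with an adjusted p were. In 30 of the 44 both inhibitor libraries were above both DMSO libraries, as in 28.9% of all tested genes. Leaving out DMSO replicate 1 took the median to 0.47, and leaving out DMSO replicate 2 took it to 1.53. The median of the list, centred for each gene on its mean log2 CPM, was -1.02 and 0.00 in the DMSO libraries and 0.51 and 0.45 in the inhibitor libraries, so that DMSO replicate 1 lay below DMSO replicate 2 and both below the inhibitor libraries, as in Oas1c, Oas1d, Oas1e, Oas1f and Oas1h. Its 3 most abundant genes were Omt2b, at 14509 and 22367 FPKM in DMSO embryos and 35927 and 33514 FPKM in inhibitor embryos, Omt2a, at 4117 and 7854 against 12438 and 11320 FPKM, and the maternal factor Dppa3, which went the other way, at 23548 and 15004 against 11263 and 12132 FPKM. Of 27 tested two-cell transcripts, 20 were higher and 7 lower, with a median of 0.74, no edgeR call, and 2 DESeq2 calls in each direction, seen on inspection to be Zscan4f and Gm5039 as higher and Pramel6 and Pramel7 as lower, where DESeq2 called 5.48% of all genes with an adjusted p as lower. For this list the same omissions gave medians of 0.31 and 1.59. Of its most abundant genes Tcstv3 was at 437 and 1357 FPKM in DMSO embryos and 1361 and 1787 FPKM in inhibitor embryos, Tcstv1 at 186 and 812 against 1075 and 1241 FPKM, and Sp110 at 565 and 513 against 448 and 530 FPKM. Whether the Oas1 differences are a part of this shift between libraries was not tested.

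The other synthetase and synthetase-like genes were nearly silent. Oas2, which lies beyond Oas3, had 0 counts in 3 libraries and 4 counts in inhibitor replicate 2. Oas3, next to the cluster, had 1 and 3 counts in DMSO embryos and 42 and 0 in inhibitor embryos, so a single library held nearly all of them. The OAS-like genes Oasl1 and Oasl2 were at 0.18 to 0.50 FPKM and at 0.79 to 1.89 FPKM, with groups that overlapped. Oas1d in the same libraries was at 53.9 to 142 FPKM, far above these 4 genes.

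Of the 7 genes of the list of other OAS pathway genes, 4 passed the filter, and edgeR called none. Abce1, which recycles ribosomes, was at 53.8 and 34.4 FPKM in DMSO embryos and 7.80 and 16.4 FPKM in inhibitor embryos. It ran opposite to the tested Oas1 members other than Oas1b, with a log2 fold change of -2.05 ± 0.51 and an adjusted p of 0.333 in edgeR. DESeq2 called it as lower with an adjusted p of 0.00806, where 5.48% of all genes with an adjusted p were so called. Pde12, an enzyme that can degrade the oligoadenylates, was at 10.9 and 10.4 FPKM in DMSO embryos and 7.22 and 8.19 FPKM in inhibitor embryos, with a log2 fold change of -0.61 ± 0.41 and an adjusted p of 0.468 in edgeR.

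The genes listed for double-stranded RNA sensing, which include signalling partners of the sensors, were at 0 to 18.1 FPKM. Of 16 written, 15 were listed, 12 were tested, 7 were above 0 and 5 below in log2 fold change, and neither tool called one. The most abundant were Zcchc3, a cofactor of RNA sensing, at 4.40 and 11.8 FPKM in DMSO embryos and 15.04 and 18.1 FPKM in inhibitor embryos, Ddx58, which encodes the sensor RIG-I, at 1.20 and 7.39 against 10.3 and 12.8 FPKM, and the kinase Tbk1 at 1.48 and 5.53 against 2.28 and 2.20 FPKM. In Ddx58, too, DMSO replicate 1 was lowest and both inhibitor libraries were highest, with a log2 fold change of 1.37 ± 0.71 and an adjusted p of 0.383 in edgeR. Ifih1, the sensor MDA5, was at 0 in all 4 libraries; it was named after its values were seen, as were Stat2, Irf9, Ifnar1 and Ifnar2, because they are textbook steps before the OAS genes.

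Interferon ligands gave almost no reads apart from Ifng. Of 11 listed, 8 were at 0 in all 4 libraries, Ifnb1 was at 0 in 3 and at 0.31 FPKM in inhibitor replicate 2, and Ifnk was at 0.10 and 0 FPKM in DMSO embryos and 1.15 and 0 FPKM in inhibitor embryos. Ifng was listed at 112 and 224 FPKM in DMSO embryos and at 130 and 148 FPKM in inhibitor embryos, with groups that overlapped, and whether these reads came from Ifng or from another transcript that overlaps or resembles it cannot be told from gene-level values. Of the 18 receptor and signalling genes, 15 were tested, 9 above 0 and 6 below. Their median log2 fold change was 0.58, a value that was 0.24 without DMSO replicate 1 and -0.24 without inhibitor replicate 1. None was called by edgeR, while DESeq2 called 1 as lower, where 5.48% of all genes with an adjusted p were. That gene, Socs3, a feedback inhibitor of the pathway picked out after its call was seen, was at 14.1 and 1.66 FPKM in DMSO embryos and 0.77 and 1.78 FPKM in inhibitor embryos, so that DMSO replicate 1 alone was high. Jak2, the most abundant, was at 87.7 and 184 FPKM in DMSO embryos and 218 and 217 FPKM in inhibitor embryos. Jak1 was at 9.93 and 17.1 against 28.8 and 24.7 FPKM, and the transcription factor Irf1 at 8.67 and 17.5 against 20.5 and 30.0 FPKM. Stat2 and Irf9, transcription factors that act on the interferon element, were not lowest in DMSO replicate 1. Stat2 was at 5.09 and 6.02 FPKM in DMSO embryos and 2.39 and 1.63 FPKM in inhibitor embryos, and Irf9 at 7.31 and 4.50 against 3.45 and 2.32 FPKM. Of the type I receptor genes, Ifnar1 was at 0.93 to 1.92 FPKM and Ifnar2 at 0 to 2.26 FPKM, both with groups that overlapped.

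**Figure D5:**
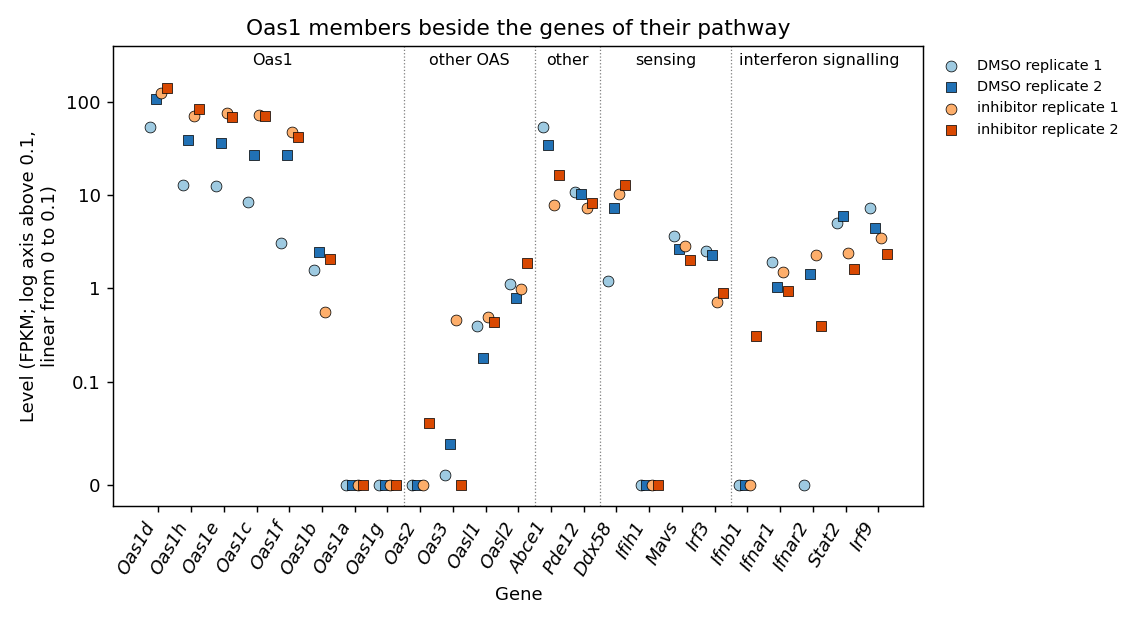
Level in FPKM of the 8 Oas1 members, the other OAS genes, Abce1 and Pde12, and a selection of RNA sensing and interferon genes. There is 1 point for each library (the axis is logarithmic above 0.1 and linear from 0 to 0.1). Among the genes not drawn are Ifng, Jak2, Jak1 and Irf1, which lay between 8.67 and 224 FPKM. Oas1d, Oas1h, Oas1e, Oas1c and Oas1f lay between 3.05 and 142 FPKM, while Oas2, Oas3 and Ifih1 were at or near 0.

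Genes that interferon raises along with OAS genes in other cells were mixed. Of 31 interferon-stimulated genes, 5 were at 0 in all 4 libraries and 20 were tested, 14 of them above 0 and 6 below. None was called by edgeR, and DESeq2 called 1 as lower, Ifi35, where 5.48% of all genes with an adjusted p were. The median log2 fold change of the list was 0.51. That median was 0.31 without inhibitor replicate 1 and 0.34 without inhibitor replicate 2. B2m, a part of the class I antigen complex, was at 145 and 190 FPKM in DMSO embryos and 160 and 212 FPKM in inhibitor embryos. Ifitm3, a membrane protein that blocks virus entry, was at 33.9 and 110 against 200.01 and 225 FPKM, again lowest in DMSO replicate 1. Ifi35 went the other way, at 139 and 94.6 against 32.5 and 58.9 FPKM.

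The neighbours of the cluster on chromosome 5 were mixed in direction. Of 9 genes written, 8 were listed and 4 tested, and neither tool called one. Rph3a, beside Oas1d, was at 4.21 and 11.0 FPKM in DMSO embryos and 14.9 and 12.1 FPKM in inhibitor embryos, with a log2 fold change of 0.75 ± 0.49 and an adjusted p of 0.464 in edgeR. Ptpn11 was at 16.7 and 18.8 against 21.9 and 18.3 FPKM, Rita1 at 6.28 to 9.06 FPKM with groups that overlapped, and Ddx54 at 13.5 and 7.85 against 5.21 and 6.36 FPKM. Dtx1 was at 0 in both DMSO libraries and at 0.67 and 0.15 FPKM in inhibitor embryos, and Rasal1 was at 0 in all 4. Oas2 and Oas3 complete the list. Of the 4 tested neighbours, Rph3a had both inhibitor libraries above both DMSO libraries, a pattern of 28.9% of all tested genes.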

How the data were processed

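RNA-seq of 4 libraries was analysed, 2 with DMSO and 2 with the MYC inhibitor 10074-G5, grouped by their labels. Per the labels and the methods, the authors made full-length cDNA of polyadenylated RNA with SMART-Seq v4 PLUS, mapped paired reads to mm10 with STAR 2.7.10, retained only reads with a single place in the genome and estimated gene abundance by RSEM 1.3.3, versions as in the submitters' processing notes. The deposited expected counts are estimates of fragments per gene, not normalized, and 3.97% to 4.49% of them were not whole. The deposited FPKM values are scaled to effective length and to library size, as the authors gave them, and the deposited TPM values, scaled to a fixed total per library by the authors, were not used. Transcript lengths were deposited beside them.

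The expected counts were rounded and tested with edgeR 4.0.16 (TMM, filterByExpr with a minimum count of 10 and a minimum total of 15, robust quasi-likelihood F-test, Benjamini-Hochberg adjustment over all 13549 tested genes, R 4.3.3). This takes the place of the study's DESeq2, run as DESeq2 1.42.0 beside it. FPKM served for levels between genes, and CPM for differences between groups. The median log2 fold change of all tested genes was 0.04. Further alternatives were DESeq2 size factors, library totals, no filter or 10 counts in every library, limma 3.58.1 on log2(FPKM + 1) and log2(FPKM + 0.1), a replicate block, and leaving out each library. The scripts were tested on simulated counts that had less spread than these data, the same in every library, and larger changes than those of the members. That test therefore checks the code and does not show what the fits can find here. The libraries are called biological replicates by the study, but nothing says how the embryo pools were formed, so p-values measure the spread between these pools. The depth bounds low levels: a count of 0 allows up to 3 counts, for counting error only. Differences on the log2(FPKM + 1) scale understate those of low genes.

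The members and lists were chosen with earlier results of these data known. The genes named were the 8 members, all genes of the lists of OAS pathway and of locus neighbours, the 3 most abundant of each other list with any past both thresholds, and the 3 genes most like each of Oas1c, Oas1d and Oas1e, plus those said to be added, apart from items that are not reported here. Gene positions and transcripts were from GENCODE M21 on GRCm38, coding sequences were aligned with mafft 7.526, and promoters were from RefSeq, GRCm38.p6.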

Additional observations from a re-analysis of the deposited data

How the results depend on the processing

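The 6 tested Oas1 members kept their direction under all 13 alternatives: the log2 fold change ran from 1.41 to 2.79 for Oas1c, 0.98 to 2.27 for Oas1e, 0.98 to 2.17 for Oas1h, 0.73 to 3.62 for Oas1f, 0.31 to 1.05 for Oas1d and -1.96 to -0.06 for Oas1b. No member was called in the main edgeR test. Oas1c was called without a filter on low counts (log2 fold change 1.93, adjusted p 0.00408 in edgeR), in DESeq2 (1.94, 0.0112) and in DESeq2 with transcript lengths (1.94, 0.0110), and Oas1e without a filter (1.48, 0.0456). Without DMSO replicate 2 edgeR called 5 members, with values of 2.79, 2.27, 2.17, 3.62 and 1.05 for Oas1c, Oas1e, Oas1h, Oas1f and Oas1d. Leaving out any other library gave no call among them, and over all alternatives the adjusted p ran from 0.000377 to 0.992 for Oas1c and from 0.000710 to 0.992 for Oas1e.

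No gene was called as higher or lower by edgeR with TMM factors, DESeq2 size factors, library totals or 10 counts in every library, or by limma. The numbers higher and lower were 165 and 479 without a filter, 87 and 437 in DESeq2, and 87 and 438 in DESeq2 with transcript lengths. Leaving out 1 library in turn gave 1 to 2148 higher and 1 to 2065 lower, the highest without DMSO replicate 2. With that library gone the DMSO group is replicate 1 alone.

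Whether the replicate numbers pair the libraries is not stated. The deviations of the libraries numbered 1 from their group means correlated at -0.03 over 13549 genes. With 2 libraries a group this is a single correlation, which cannot settle the question. With the numbers as a replicate block, edgeR called 12 genes as higher and 32 as lower, no Oas1 member among them, with adjusted p-values of 0.0758 for Oas1c, 0.139 for Oas1f, 0.200 for Oas1e, 0.212 for Oas1h and 0.625 for Oas1d.

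The share of Oas1c, Oas1d and Oas1e in inhibitor embryos was 69.2% by FPKM and 75.8% by counts, which do not correct for transcript length. The median of the list of RNA sensing genes was 0.20, and -0.13 with 10 counts in every library, and ran from -0.19 to 0.32 with a library left out. That of receptor and signalling genes was 0.58, and 0.66 with library totals, -0.43 with 10 counts in every library, 0.15 and 0.26 in limma with a pseudocount of 1 and 0.1, 0.74 with the replicate block and -0.24 to 0.58 with a library left out. That of interferon-stimulated genes was 0.51, and 0.64 with library totals, 0.63 in limma with a pseudocount of 0.1, 0.63 with the replicate block and 0.31 to 0.68 with a library left out. With a library left out the median ran from 0.47 to 1.53 for maternal and from 0.31 to 1.59 for two-cell transcripts. The cause of these shifts was not tested. The counts of called list genes that follow were not compared with the share of all genes that each fit called. The number tested is that of the main fit, and fits with another filter tested other numbers of genes. The largest counts came without DMSO replicate 2, the fit that also called the most genes of all, so nothing is read from them. Of the 82 genes listed in the 5 pathway lists, 52 were tested, and 0 were called by edgeR, 3 without a filter, 3 in DESeq2, 3 in DESeq2 with transcript lengths and up to 12 with a library left out, and of the maternal transcripts 0, 4, 3, 3 and up to 30.

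With 2 libraries a group, 1 of which stood apart, the size of each difference is loose, and an adjusted p over the threshold does not show that a gene did not differ.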
